A study of Arabidopsis thaliana with 12 samples.

Results

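The genes described are class III peroxidases of Arabidopsis thaliana, chosen as 60 listed loci of that family. Of these, 51 had a probe set paired with that gene alone, among 16746 single-gene probe sets on the array. The other 9 loci are not analysed here, namely AT1G05240, AT1G05250, RCI3, PER4, PRXCB, PA2, PER64, RHS18 and RHS19. Whole wild-type seedlings of the Col-0 accession, labelled as 7 days old, were shaken in liquid medium and treated with the auxin indole-3-acetic acid (IAA, 1 µM, dissolved in DMSO) or with 0.1% DMSO as mock. Treatment lasted 15 min or 3 h, which gave 4 groups of 3 arrays: IAA 15 min, mock 15 min, IAA 3 h and mock 3 h. The experiment was repeated on 3 days, with 10 seedlings to a tube, and nothing in the labels says how many tubes made a sample. The protocol text lists other times and no 15 min, and the sample titles were followed here.

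Class III peroxidases are secreted, haem-containing plant enzymes that use hydrogen peroxide to oxidise phenolic substrates in the cell wall. By coupling lignin monomers, wall proteins and other phenolics they stiffen walls, and by making or using reactive oxygen they can also act on wall loosening, elongation and defence. In roots, family members are known from root hairs, from the lignin of the Casparian strip and from xylem vessels. Some plant peroxidases can also oxidise IAA in the test tube.

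Each level is a log2 value made with RMA, a method that corrects for background, normalises between arrays and gives each probe set 1 value. A level depends on the probes as well as on the RNA, so levels of different genes are described only as bright or dim. In whole seedlings, fewer cells of a type and less RNA per cell cannot be told apart. Array medians lay between 4.72 and 4.79, but the spread of values was narrower on the arrays numbered 1, with interquartile ranges of 3.46 and 3.53 for IAA and mock at 15 min and 2.88 and 3.79 for IAA and mock at 3 h, against 3.89 to 3.92 on the other 8. In the same order their lower quartiles were 3.03, 2.98, 3.35 and 2.73, against 2.70 to 2.74 on the other 8. Their upper quartiles were 6.48, 6.51, 6.23 and 6.52, against 6.62 to 6.63. Taken over all rows, bright probe sets thus read lower on these arrays. Dim ones read higher on each of them except mock 3 h array 1. Many results are therefore also given without the 4 arrays numbered 1, though not every value. The leaf transcript RCA changed by -0.01 (SE 0.12) at 3 h and the root transcript PYK10 by -0.19 (SE 0.15). Without the arrays numbered 1 the changes were -0.05 and -0.009. Both were bright on every array, so leaf and root RNA were present in the samples. The other measured root marker, EXPA7, was dim, with group means from 4.04 to 4.28.

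The 51 measured peroxidase genes ran from a mean level of 2.34 for AT1G34510 to 11.02 for PRXR1 (AT4G21960). Their median level was 5.39, and 41 of the 51 lay at or above the median of all tested rows, 4.33. The brightest were PRXR1, AT3G32980 (10.04), AT3G21770 (9.30), AT5G64120 (9.17, also named PRX71), AT4G33420 (9.10) and Prx37 (8.97). Besides AT1G34510, the dimmest were AT1G24110 (2.35), AT4G17690 (2.58) and AT3G50990 (2.91, also named PER36). Of these, AT1G34510, AT1G24110 and AT4G17690 lay below the 25th percentile of tested rows, 2.63, where RMA compresses differences.

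PRXR1 varied little across the design. It read 10.64, 11.11 and 11.14 in IAA and 10.74, 11.11 and 11.08 in mock at 15 min. At 3 h it read 10.87, 11.19 and 11.07 in IAA and 11.05, 11.16 and 11.11 in mock. The groups overlapped at both times, and the lowest value of each of the 4 groups was that of array 1.

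The second-brightest member, AT3G32980, was as even, at 9.99, 10.21 and 10.20 in IAA 3 h and 9.88, 10.18 and 10.04 in mock 3 h. Its log2 change was 0.10 (SE 0.14) at 3 h.

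Differences were tested with limma across all 17504 rows that carry a gene name, and p-values were adjusted by Benjamini-Hochberg, with a threshold of 0.05 for a call. After 3 h of IAA, 3 of the 51 peroxidase genes were called, 2 lower and 1 higher than in mock. AT3G01190 and AT4G30170 fell and AT5G14130 rose. Over all tested rows, 0.24% were called at 3 h, 0.0686% as lower and 0.171% as higher. With the replicate block the same 3 members were called, beside 0.514% of all rows (0.257% in each direction).

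AT3G01190 had the largest change of the 51 genes. In IAA 3 h it stood at 5.0, 5.38 and 5.06 on arrays 1 to 3, against 8.30, 7.93 and 7.54 in mock 3 h. The groups did not overlap, and the lowest mock array exceeded the highest IAA array by more than 2 log2 units. The means were 5.15 ± 0.20 in IAA and 7.92 ± 0.38 in mock (SD, n = 3 each). The level was 6.84-fold lower in IAA (log2 change -2.77, SE 0.24, limma adjusted p 0.000592). The call remained when any 1 of the 12 arrays was left out, with adjusted p from 0.000741 to 0.00764, and the change was -2.51 without the arrays numbered 1. With all arrays numbered 2 or all numbered 3 left out, the adjusted p was 0.0839 and 0.0811, at changes of -2.89 and -2.93. In these 2 fits 0 and 1 of the 17504 tested rows were called.

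AT4G30170 fell 2.09-fold at 3 h. It read 6.06, 5.54 and 5.59 in IAA 3 h and 7.04, 6.77 and 6.58 in mock 3 h, so that every IAA array lay below every mock array. The log2 change was -1.07 (SE 0.18, limma adjusted p 0.0425, and 0.00525 with the replicate number as a block). This call was close to the threshold. It was lost when any single array was left out other than IAA 15 min array 1 or IAA 3 h array 1, with adjusted p up to 0.239 and a change between -1.23 and -0.94. It was also lost after quantile normalisation, at a change of -0.95, and after median centring, at -1.06 (limma adjusted p 0.0585). With all arrays numbered 2 or all numbered 3 left out, the adjusted p was 0.817 and 0.797, at changes of -0.99 and -1.10. The call was kept in 9 of 23 alternatives.

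AT5G14130 rose 2.51-fold at 3 h, the 1 called rise among the members. Its levels were 5.73, 6.34 and 6.77 in IAA 3 h and 4.91, 5.03 and 4.92 in mock 3 h. The IAA arrays were all above the mock arrays and more widely spread, at 6.28 ± 0.52 against 4.96 ± 0.07 (SD, n = 3 each). The log2 change was 1.33 (SE 0.23, limma adjusted p 0.0484, and 0.0369 with the block). Leaving out IAA 3 h array 1 gave 1.60 (adjusted p 0.00338). Leaving out any 1 of the other 11 arrays ended the call, with adjusted p up to 0.272. With all arrays numbered 2 or all numbered 3 left out, the limma adjusted p was 0.817 and 0.797, at changes of 1.34 and 1.06. With the intensity trend it was 0.0542. The call was kept in 9 of 23 alternatives.

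**Figure D1:**
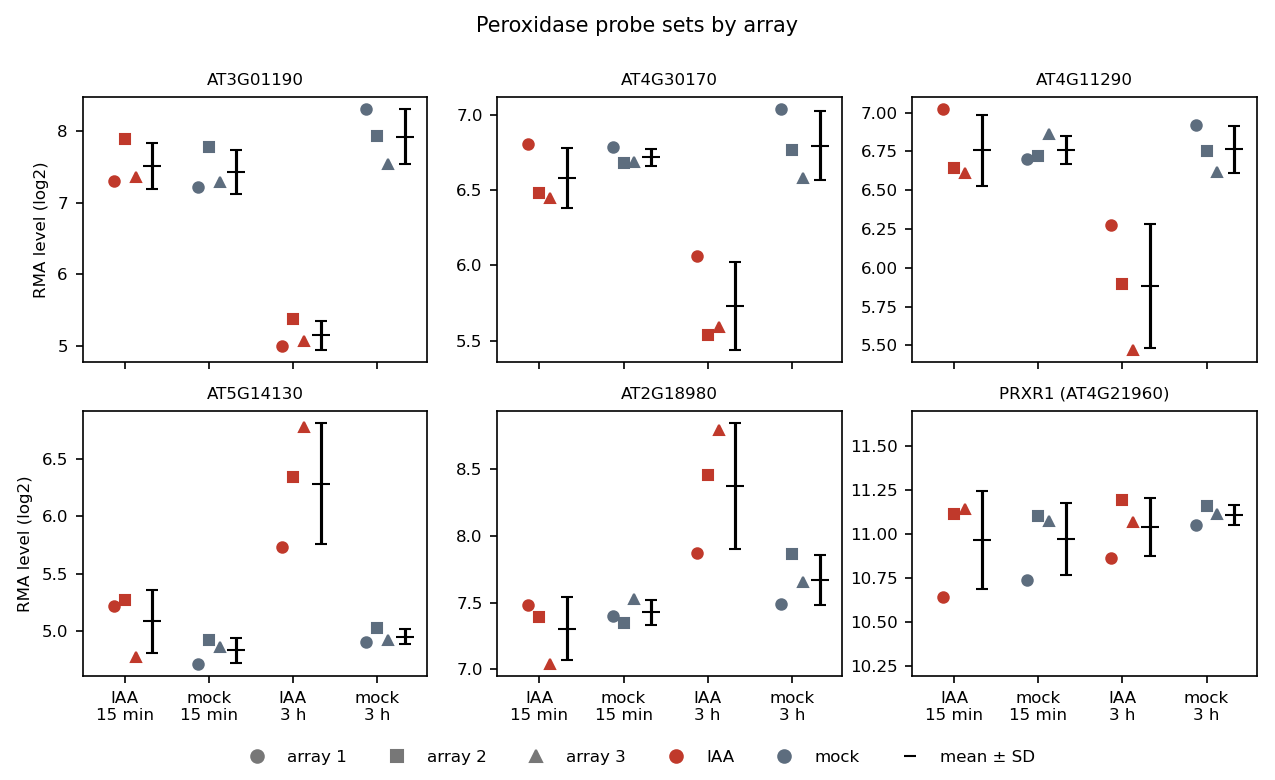
RMA level (log2) of 6 peroxidase genes on each of the 12 arrays, by group. Symbols mark the array number, red is IAA and grey is mock, and black bars are the mean ± SD of 3 arrays. At 3 h the IAA arrays of AT3G01190, AT4G30170 and AT4G11290 lie below and those of AT5G14130 and AT2G18980 above all mock arrays, while the PRXR1 groups overlap.

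The members next in size did not pass the test. AT4G11290 read 6.27, 5.90 and 5.47 in IAA 3 h against 6.92, 6.75 and 6.62 in mock 3 h, with no overlap (log2 change -0.88, SE 0.20, limma adjusted p 0.172, and 0.0541 with the block). AT2G39040 read 4.41, 3.77 and 3.71 in IAA 3 h against 4.77, 4.8 and 4.52 in mock 3 h (-0.73, SE 0.19, adjusted p 0.312). For both, IAA array 1 lay closest to the mock arrays. Without the 4 arrays numbered 1 they were called lower, with AT4G11290 at -1.0 (SE 0.14, adjusted p 0.0168) and AT2G39040 at -0.92 (SE 0.12, adjusted p 0.0141). Leaving out IAA 3 h array 1 alone gave adjusted p of 0.0265 and 0.0226.

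AT1G49570 had a log2 change as large as that of AT4G30170 but a wider spread. Its levels were 4.34, 3.08 and 3.6 in IAA 3 h and 4.42, 5.29 and 4.42 in mock 3 h. The groups did not overlap, yet IAA array 1 was only 0.08 below mock array 1 (-1.03, SE 0.38, limma adjusted p 0.78). Without the arrays numbered 1 its change was -1.51, again not called.

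On the rising side AT2G18980 came second, at 7.87, 8.46 and 8.80 in IAA 3 h against 7.49, 7.86 and 7.65 in mock 3 h. All 3 IAA arrays were above all mock arrays, array 1 by a small margin (0.71, SE 0.22, limma adjusted p 0.555). AT3G50990 (PER36), a peroxidase known from seed coat mucilage cells, had a change of 0.48 (SE 0.32) that came from 1 array. It read 4.30, 2.75 and 2.81 in IAA 3 h and 2.83, 2.79 and 2.81 in mock 3 h, and without IAA 3 h array 1 the change was -0.028.

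Across the family, 35 of the 51 genes had a negative and 16 a positive log2 change at 3 h, with a median of -0.20. Over all tested rows the median was 0.06, and 40.6% of rows were negative. That share varied with level, at 66.7% of rows at or above the members' median level and 26.0% below it. By limma, 10 members were lower and 2 higher at an unadjusted p under 0.05, beside 2.45% and 2.41% of all tested rows (4.86% together). With the replicate block these counts were 15 and 2, beside 4.7% and 6.14% of all rows. In 10 members all 3 IAA arrays lay below all 3 mock arrays, beside 4.65% of tested rows, and in 2 members above, beside 6.56%. The 10 were AT3G01190, AT4G30170, AT1G49570, AT4G11290, AT2G39040, Prx37, AT5G17820, AT5G15180, AT3G21770 and AT4G37530. The list was chosen with earlier results of these data known, and AT3G01190 was among them, so these counts describe the 51 genes and support nothing further.

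**Figure D2:**
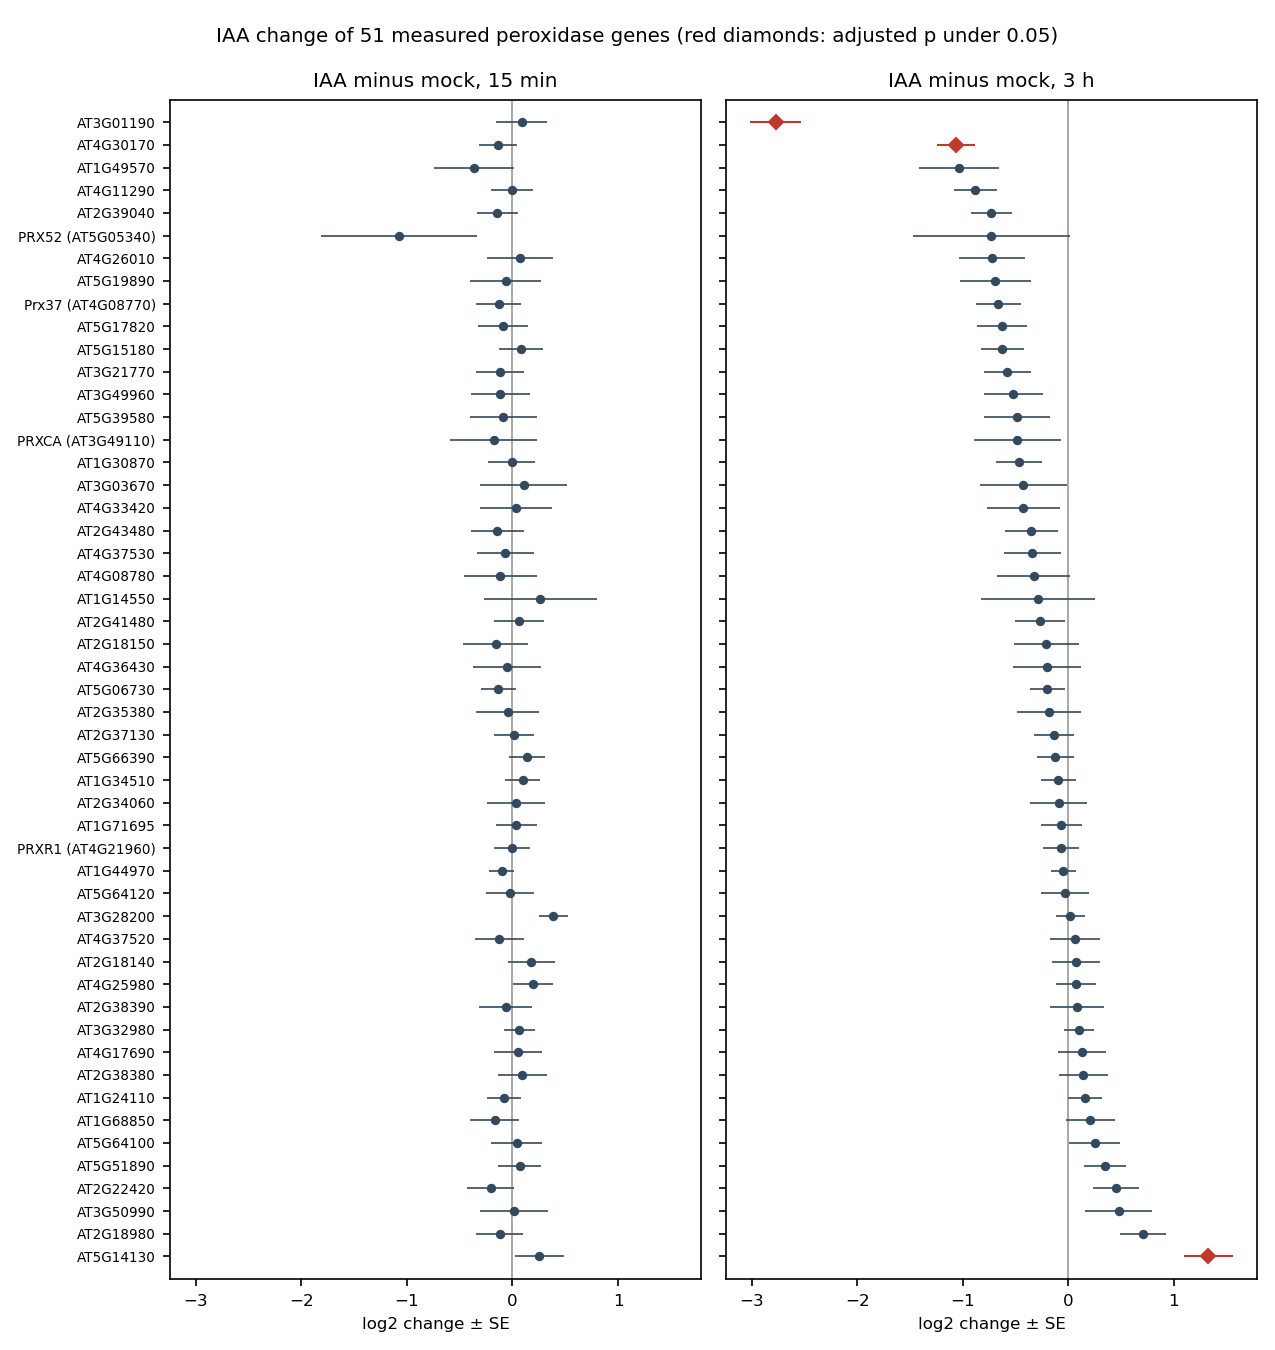
Log2 change ± SE of IAA minus mock for all 51 measured peroxidase genes at 15 min (left) and 3 h (right), ordered by the change at 3 h. Red diamonds mark adjusted p under 0.05, which AT3G01190, AT4G30170 and AT5G14130 reached at 3 h and no gene at 15 min. The plot shows 35 negative and 16 positive changes at 3 h.

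The size of the family's shift depended on the arrays numbered 1. Without these 4 arrays the median change at 3 h was -0.07, with 34 negative and 17 positive changes, and the median of all tested rows was 0.00. In that fit 5 members were called, 4 lower and 1 higher, beside 0.428% and 0.503% of all rows (0.931% together). After quantile normalisation the median of the members was -0.19, with 36 negative changes, against a median of 0.011 for all tested rows. In that fit 1 member was called in each direction, beside 0.0686% of all rows as lower and 0.171% as higher.

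The shift was also set against brightness, since the narrow arrays move bright rows down. With all 12 arrays, the 26 brighter members had a median change of -0.38 and the 25 dimmer ones a median of -0.10. The corresponding medians of all tested rows at or above and below the same level were -0.10 and 0.15. Negative changes numbered 20 of the 26 and 15 of the 25 members, beside 66.7% and 26.0% of those rows. Without the arrays numbered 1 these counts were 17 and 17, beside 49.8% and 50.1%. Without the arrays numbered 1 the medians of the brighter and dimmer members were -0.09 and -0.07, while those of all rows were 0.00 in both ranges. Over the 51 genes, which are not independent replicates and share the same arrays, level and change had a Spearman correlation of -0.14 with all arrays and 0.12 without those numbered 1.

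**Figure D3:**
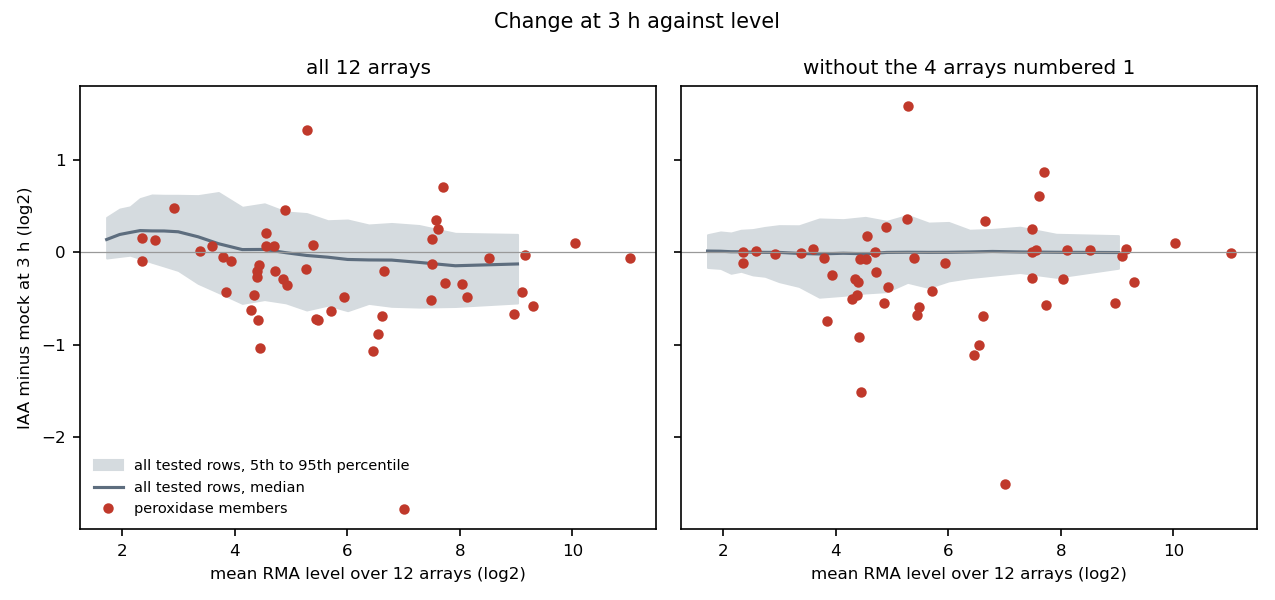
Log2 change of IAA minus mock at 3 h against the mean RMA level over 12 arrays, for the 51 peroxidase genes (red) and for all tested rows (grey line, median; grey band, 5th to 95th percentile, in 20 bins of level). With all 12 arrays (left) the median of all rows is above 0 for dim rows, highest at 0.23, and below 0 for bright ones, lowest at -0.15. Without the 4 arrays numbered 1 (right) it is flat near 0. AT3G01190 at -2.51 and AT5G14130 at 1.58, the lowest and highest members, stand outside the band. Other members do too, among them AT1G49570 at -1.51, AT4G30170 at -1.11 and AT2G18980 at 0.87.

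Members were also grouped by what their loci are generally known for, although the RefSeq gene table names a function for few of them. Root hair growth was covered by 3 measured genes of 6, AT4G26010, AT5G39580 and AT5G64100. At 3 h 0 were called by limma, beside 0.24% of all tested rows. At an unadjusted limma p under 0.05, 1 was lower, beside 2.45% of all rows. AT4G26010 read 5.36, 5.42 and 4.62 in IAA 3 h and 6.16, 6.15 and 5.25 in mock 3 h. It was lower in all 3 same-numbered pairs, by similar amounts, although the groups overlapped (-0.72, SE 0.31, limma adjusted p 0.78, and 0.0627 with the block). AT5G39580 read 7.48, 7.54 and 7.59 in IAA 3 h and 8.98, 7.55 and 7.53 in mock 3 h, so that its change of -0.49 (SE 0.31) came from mock array 1, and it was 0.022 without the arrays numbered 1. AT5G64100 read 7.96, 7.95 and 8.20 in IAA 3 h and 8.42, 7.66 and 7.29 in mock 3 h. Its change of 0.25 (SE 0.24) was 0.60 without those arrays, again with array 1 the highest of the mock 3 h arrays.

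The genes of endodermal lignin and the Casparian strip, the barrier that seals the root's inner tissues, had 3 measured members of 5. These were AT4G11290, described above, AT5G66390 (PRX72) and AT1G44970. PRX72, a lignin-forming peroxidase, read 7.25, 7.53 and 7.66 in IAA 3 h and 7.62, 7.76 and 7.43 in mock 3 h, which overlap (-0.12, SE 0.17). AT1G44970 had the smallest spread of the 51 genes, with a pooled SD of 0.069, and changed by -0.05 (SE 0.12). With all arrays 0 of the 3 were called at 3 h by limma, beside 0.24% of all tested rows. At an unadjusted p under 0.05 there was 1, AT4G11290, beside 4.86% of all rows.

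Stem and vessel lignin peroxidases had 6 measured members of 8. At 3 h 0 of them were called by limma and 0 had an unadjusted p under 0.05, beside 0.24% and 4.86% of all tested rows. Their changes were -0.73 (SE 0.74) for PRX52, -0.43 (SE 0.34) for AT4G33420, -0.26 (SE 0.24) for AT2G41480 (PRX25), -0.03 (SE 0.23) for AT5G64120 (PRX71), 0.35 (SE 0.20) for AT5G51890 and 0.45 (SE 0.22) for AT2G22420. The change of AT5G51890 came from IAA array 1, at 8.31 against 7.44 and 7.61 on the other IAA 3 h arrays, with mock 3 h at 7.34, 7.49 and 7.50. The 4 negative and 2 positive changes were 3 and 3 without the arrays numbered 1, from -0.60 for PRX52 to 0.28 for AT2G22420.

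The peroxidases of the oxidative burst and of elongation had 3 measured members of 4. All 3 changes were negative at 3 h, with 0 called by limma, beside 0.24% of all tested rows. Of tested rows at or above the members' median level, where these 3 lay, 66.7% were negative. At an unadjusted limma p under 0.05, 2 were lower, beside 2.45% of all rows. With the block it was 3, beside 4.7%. Prx37, a peroxidase whose excess is known to stunt growth, read 8.16, 8.73 and 8.67 in IAA 3 h and 9.04, 9.35 and 9.15 in mock 3 h, with no overlap (-0.66, SE 0.22, limma adjusted p 0.622, and 0.143 with the block). AT5G17820 read 5.58, 5.31 and 5.61 in IAA 3 h and 6.63, 6.11 and 5.64 in mock 3 h. Its groups were separate by 0.03 only, between the arrays numbered 3 (-0.63, SE 0.24, adjusted p 0.78). PRXCA, which makes hydrogen peroxide in the defence burst, read 4.76, 6.10 and 6.27 in IAA 3 h and 5.98, 6.26 and 6.35 in mock 3 h, and its change of -0.48 (SE 0.41) was -0.12 without the arrays numbered 1.

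At 15 min of IAA, 0 of the 51 genes were called by limma with or without the replicate block, beside 0% of all tested rows without the block and 0.0229% with it. Without the arrays numbered 1 it was again 0 members, beside 0.0628% of all rows, all of these higher. Log2 changes ran from -1.07 to 0.39 with a median of -0.02, and 22 were positive and 29 negative. One member, AT3G28200, reached an unadjusted p under 0.05, as higher, beside 0.446% of all rows, and 0 members as lower, beside 0.189% (0.634% together). With the replicate block 1 member was higher and 1, PRX52, lower at that p, beside 0.766% and 0.457% of all rows.

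AT3G28200 was also the 1 member whose groups did not overlap at 15 min, with IAA above mock, beside 2.11% of all rows above and 1.87% below. It read 3.62, 3.45 and 3.64 in IAA and 3.08, 3.25 and 3.22 in mock (0.39, SE 0.14, limma adjusted p 1). At 3 h its change was 0.02 (SE 0.14). The 3 members called at 3 h had changes at 15 min of 0.09 (SE 0.24) for AT3G01190, -0.14 (SE 0.18) for AT4G30170 and 0.25 (SE 0.23) for AT5G14130, with adjusted p 1 for each.

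The largest change at 15 min, that of PRX52, rested on 1 mock array. PRX52, known for the lignin of stem fibres, read 5.24, 4.54 and 4.71 in IAA 15 min and 5.17, 4.75 and 7.80 in mock 15 min. It had the widest spread of the 51 genes, a pooled SD of 1.08, beside a median of 0.30 for the members and 0.26 for all tested rows. Array 3 was also the highest at 3 h, at 6.08 in IAA and 7.04 in mock, against 4.96 and 4.62 on the other IAA and 5.96 and 4.86 on the other mock arrays. The 15 min change of PRX52, -1.07 (SE 0.74), had an adjusted p of 1 and was -1.65 without the arrays numbered 1. AT1G14550, with the second-widest spread (pooled SD 0.77), read 6.53, 6.12 and 4.47 in IAA and 5.88, 5.84 and 4.60 in mock at 15 min. Here array 3 was the lowest in both groups, and the change of 0.27 (SE 0.54) turned to -0.15 without IAA 15 min array 1. Other changes were -0.36 (SE 0.38) for AT1G49570, -0.21 (SE 0.22) for AT2G22420, -0.18 (SE 0.41) for PRXCA and 0.20 (SE 0.19) for AT4G25980.

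**Figure D4:**
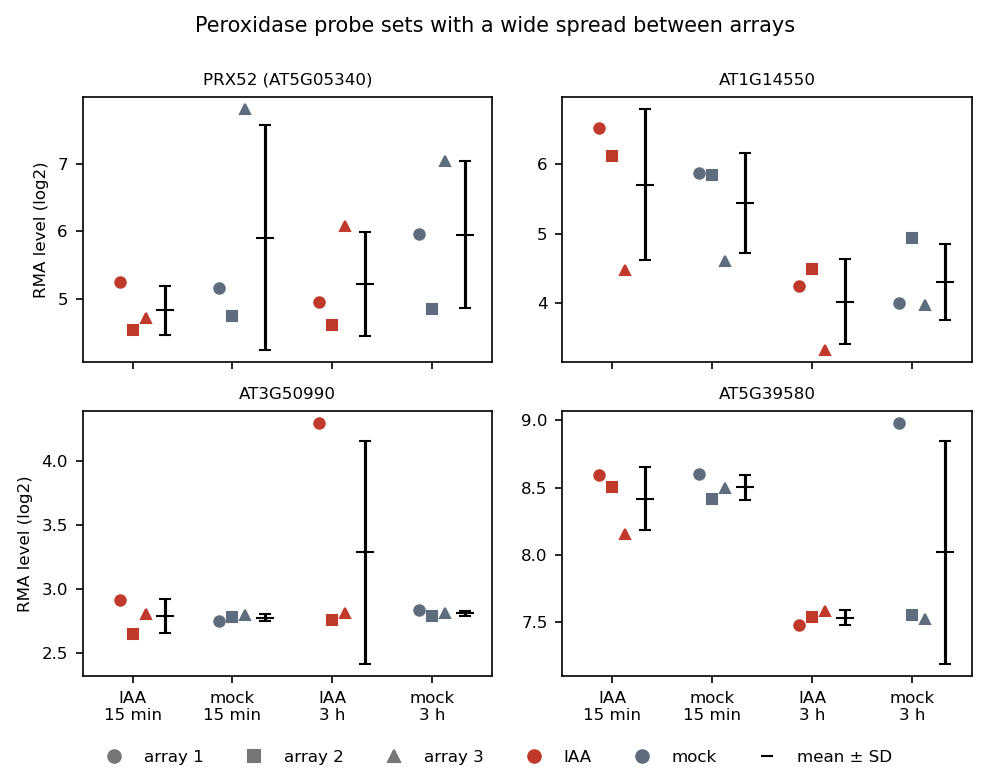
RMA level (log2) on each of the 12 arrays for 4 peroxidase genes with a wide spread between arrays. Symbols mark the array number, red is IAA and grey is mock, and black bars are the mean ± SD of 3 arrays. PRX52 is high on mock array 3, and AT1G14550 has a lower mean at 3 h than at 15 min in both treatments. AT3G50990 is high on IAA 3 h array 1 at 4.30, and AT5G39580 is high on mock 3 h array 1 at 8.98.

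Whether the IAA response differed between the times was tested by subtracting the 15 min change from the 3 h change. AT3G01190 was the 1 member called, at -2.86 (SE 0.34, limma adjusted p 0.0236, and 0.00705 with the block), beside 0.0114% of all tested rows called, each as lower. With the block 0.0171% of rows were called, 0.00571% as higher. Without the arrays numbered 1 the difference was -2.60 (adjusted p 0.0386), beside 0.04% of rows called as lower and 0.08% as higher (0.12% together). At an unadjusted p under 0.05, 4 members were lower and 2 higher, beside 0.96% and 0.943% of rows (1.9% together), and with the block 7 and 2, beside 1.87% and 2.24%. The 3 same-numbered differences were -3.39, -2.66 and -2.54. The call was lost in 8 of the 12 fits that left out 1 array, with adjusted p up to 0.132 and a difference between -3.05 and -2.67. It was kept without IAA 3 h array 1 or 2, mock 15 min array 2 or mock 3 h array 3. The differences were -0.93 (SE 0.26) for AT4G30170 and 1.07 (SE 0.33) for AT5G14130, both with adjusted p 0.999, so for these a difference between times was not shown.

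Mock 3 h and mock 15 min differ in time in the tube and in time with DMSO, which cannot be told apart. Between them 0 members were called by limma, beside 0% of all tested rows. The median change was 0.08. At an unadjusted p under 0.05, 2 members were higher, AT3G49960 (0.65, SE 0.28) and AT1G30870 (0.61, SE 0.22), and 0 lower, beside 1.11% and 1.74% of all rows (2.85% together). With the replicate block 7 members were higher and 2 lower, beside 2.2% and 3.27% of all rows. AT1G14550 had a lower mean at 3 h in both treatments, though the groups overlapped in each. It read 4.0, 4.93 and 3.97 in mock 3 h against 5.88, 5.84 and 4.60 in mock 15 min. In IAA it read 4.24, 4.48 and 3.32 at 3 h against 6.53, 6.12 and 4.47 at 15 min, which was not tested. The mock change of -1.14 (SE 0.54) had an adjusted p of 0.999.

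Several of these differences were largest between the arrays numbered 1. The same-numbered differences for arrays 1 to 3 were 1.39, 0.39 and 0.18 for AT3G49960 and 1.15, 0.38 and 0.28 for AT1G30870. For both, mock 15 min array 1 was the lowest mock array, at 6.68 and 3.81, and mock 3 h array 1 lay near array 2. The differences were 1.21, 0.17 and 0.17 for AT5G64100, 1.14, 0.19 and 0.10 for AT5G17820 and 1.09, 0.15 and 0.25 for AT3G01190. In these 3 genes mock 3 h array 1 was the highest mock array, and the fall of AT3G01190 under IAA at 3 h was also largest on array 1, at -3.30 against -2.55 and -2.47. Without the arrays numbered 1, AT5G39580 was called lower in mock 3 h than in mock 15 min (-0.91, SE 0.12, adjusted p 0.0258), the 1 member called in that fit, beside 0.674% of all rows.

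Some members are neighbours on a chromosome, where tandem copies can be similar enough in sequence for probes to read both. In 4 adjacent pairs of members both genes were measured. At 3 h Prx37 and AT4G08780 changed by -0.66 (SE 0.22) and -0.33 (SE 0.35), and AT2G38380 and AT2G38390 by 0.14 (SE 0.23) and 0.08 (SE 0.25). AT4G37520 and AT4G37530 changed by 0.07 (SE 0.24) and -0.34 (SE 0.27), although their probe sets differed in brightness at 3.6 and 8.04. AT2G18140 and AT2G18150 changed by 0.07 (SE 0.23) and -0.21 (SE 0.31). None of these 8 genes was called at 3 h, beside 0.24% of all tested rows, and how far their probes cross-read was not tested.

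The other 13 class III peroxidase loci of the genome were all measured, and 0 were called at either time by limma. Over all tested rows the shares were 0% at 15 min and 0.24% at 3 h. At an unadjusted p under 0.05 there were also 0, beside 0.634% and 4.86% of all rows. Counts of 0 therefore do not set these 13 apart from other rows. Their median change was 0.01 at 15 min and 0.07 at 3 h, where 9 were positive and 4 negative. Without the arrays numbered 1 the median at 3 h was -0.06, with 5 positive and 8 negative. The largest change at 3 h was that of AT5G58390, at -0.50 (SE 0.49), or -0.12 without the arrays numbered 1.

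Genes that work beside the peroxidases were thinly covered. UPB1, a transcription factor known to repress peroxidase genes in the root, read 2.79, 2.72 and 2.83 in IAA 3 h and 2.43, 2.57 and 2.14 in mock 3 h. The groups did not overlap, but the gene was dim and not called (0.40, SE 0.15, limma adjusted p 0.78). NADPH oxidases, which supply the superoxide from which hydrogen peroxide forms, had 2 measured members of 10. AT4G25090 read 5.47, 6.71 and 6.80 in IAA 3 h and 7.72, 7.34 and 7.16 in mock 3 h (-1.08, SE 0.35, adjusted p 0.622, and -0.50 without the arrays numbered 1). AT4G11230 changed by 0.40 (SE 0.19).

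In the remaining lists 0 genes were called at 15 min or at 3 h by limma, beside 0% and 0.24% of all tested rows. Laccases, which also polymerise lignin, had 2 measured members of 17, with LAC16 at 0.59 (SE 0.38) at 3 h, or 0.11 without the arrays numbered 1, and AT5G01050 at -0.18 (SE 0.15). Casparian strip assembly had 2 of 9, with GSO1 at -0.18 (SE 0.23) and AT1G61590 at -0.20 (SE 0.31), both positive without the arrays numbered 1, at 0.06 and 0.09. Root hair regulators and wall proteins had 3 of 12, with EXPA18 at -0.34 (SE 0.26), EXPA7 at -0.06 (SE 0.24) and AT2G14760 at 0.15 (SE 0.12). Monolignol synthesis had 1 of 16, HCT, at -0.16 (SE 0.13), and superoxide dismutases had 0 of 7.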

How the data were processed

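Total RNA of 12 whole-seedling samples was hybridised to Affymetrix Gene 1.1 ST arrays, 1 per sample. The authors deposited log2 values. The submitters' processing notes name RMA and oligo, without versions. No genome build is given in the sources used, and coordinates are left out. Of 28583 rows, 17504 had a gene name, 16746 of them 1 gene, and 11079 had none. Loci were matched through gene numbers to RefSeq's table for TAIR10.1.

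The values were tested as deposited in limma 3.58.1 under R 4.3.3, with moderated statistics from 1 fit over the 4 groups, with 8 residual degrees of freedom and no filter. The code was tested on simulated data. Adjusted p-values are over the 17504 rows. Python 3.11.15 was used for summaries. Groups came from the sample titles. Nothing says whether samples of a group came from separate cultures, apart from the 3 days, so p-values measure the spread between these arrays. The array number limits the precision.

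The members, role groups and lists were chosen with earlier results of these data known. Members were named if called with or without the block in any comparison, by the 6 largest rises and falls at 3 h and 4 at 15 min, by the 6 highest and 4 lowest levels, and by role group. List genes were named if called, or else by the smallest p. AT5G15180, AT4G37520 and genes with separate groups, in adjacent pairs or with a change in mock, further list genes, and members called without the arrays numbered 1 were named after their values were seen.

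Replicate numbers paired the samples: same-numbered deviations from the group means correlated at 0.781, 0.65 and 0.639 at 15 min and 0.127, 0.117 and 0.172 at 3 h, over a threshold of 0.1. Blocked values are printed where they move a printed count of members, and for some members near the threshold. Alternatives were the block, leaving out arrays, quantile normalisation, median centring, a filter on dim rows, all rows, an intensity trend and array weights, with quantile normalisation and the block together added after seeing the data.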

Additional observations from a re-analysis of the deposited data

Results flagged for a closer look

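AT3G01190 was picked out because its IAA response differed between the times by the test of the difference itself: subtracting the 15 min change from the 3 h change gave -2.86 on the log2 scale (SE 0.34, limma adjusted p 0.0236). The range of adjusted p over 23 alternatives was 0.000285 to 0.999, and 13 of them kept the call.

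In 2 further members the same-numbered differences all pointed one way at 15 min and all the other way at 3 h, with no test behind the pattern. The share of all tested rows with this pattern is not given here, so the count is no result about the family. AT5G15180 had 0.07, 0.09 and 0.09 at 15 min and -0.88, -0.53 and -0.47 at 3 h, a difference of -0.71 (SE 0.29, limma adjusted p 0.999). AT4G37520 had -0.05, -0.11 and -0.22 at 15 min and 0.12, 0.05 and 0.03 at 3 h, a difference of 0.19 (SE 0.33, adjusted p 0.999). The difference between times was therefore not shown for either.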

How the results depend on the processing

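The 4 counts of called members were recomputed under 23 alternatives. At 15 min the count was 0 in each. At 3 h the count of 3, beside 0.24% of all tested rows, became 5 without the arrays numbered 1, beside 0.931%. With array weights it became 10, beside 3.12%. It was 0 without those numbered 2, where 0 of all 17504 rows were called. Without those numbered 3 it was also 0, where 1 row was called as higher and 0 as lower. The count ran from 1 to 5 when 1 array was left out. In those fits 4 to 41 of all rows were called as higher and 2 to 20 as lower, against 30 and 12 in the reported fit. Quantile normalisation and median centring gave 2 each, the intensity trend 2, and the replicate block, with or without quantile normalisation, the filter on dim rows and all rows 3. For the difference between times the count of 1 ran from 0 to 1 when 1 array was left out. It was 0 without the arrays numbered 2 or 3, where 0 of all rows were called. With array weights it was 6, beside 0.726% of all rows against 0.0114% in the reported fit. For mock 3 h against 15 min the count of 0 became 1 without the arrays numbered 1, beside 0.674% of all rows, and 2 with array weights, beside 2.62%. The replicate block changed no call of a member at an adjusted p under 0.05. With array weights AT4G11290, AT2G39040, AT1G49570, AT3G03670, Prx37 and AT5G15180 were also called lower at 3 h and AT2G18980 higher. The cause was not tested. Some uncalled log2 changes turned sign. Over the fits that left out 1 array or 1 array number, the range at 15 min was -0.15 to 0.89 for AT1G14550, -0.10 to 0.26 for AT3G01190 and -0.50 to 0.13 for PRXCA. At 3 h it was -0.46 to 0.012 for AT2G41480, -0.028 to 0.74 for AT3G50990, -0.14 to 0.022 for PRXR1, -0.76 to 0.022 for AT5G39580, -0.084 to 0.60 for AT5G64100 and -0.22 to 0.17 for AT5G64120, and between the mock groups -0.046 to 0.18 for AT4G30170. With array weights the 15 min changes were -0.26 for AT1G14550 and -0.044 for AT3G01190, and the 3 h changes -0.0006 for AT1G24110 and 0.0905 for AT5G64120. Quantile normalisation, with or without the replicate block, gave 3 h changes of -0.0333 for AT1G24110, -0.065 for AT4G17690, 0.0772 for AT5G64120 and 0.0061 for AT5G66390. In all, 920 of 1001 single-member values kept their direction and side of the threshold. Background correction could not be varied, since deposited values were already summarised, and the 3 arrays a group limit the precision.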
